A study of Xenopus laevis with 11 samples.

Results

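The translation factor and cytoplasmic aminoacyl-tRNA synthetase genes were followed through 5 tissues of early Xenopus laevis embryos, on Affymetrix arrays. A gene was taken as a member by its symbol in the platform annotation, where the symbol began with eif or eef, or was 1 to 3 letters followed by ars or ars1. Only probe sets with exactly 1 symbol were used. This gave 74 member symbols among 7531 symbols, each represented by its brightest probe set over all arrays. A further 5 probe sets with several symbols name a translation factor or synthetase and were not used. Xenopus laevis is allotetraploid: many of its genes come in a pair of copies (homeologs), named .L for the longer and .S for the shorter chromosome of the pair. The 74 members stood for 62 genes, 12 of them with both copies measured. By symbol, 38 members were counted as initiation factors, 12 as elongation factors, 7 as regulators of these factors and 17 as synthetases. The initiation factors so counted include eif4a3.1.S, the helicase of the exon junction complex. Among the synthetases, eef1e1.L was counted as a scaffold protein of the multisynthetase complex.

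The labels give 5 groups over 11 arrays. Neural border, the strip of ectoderm beside the neural plate from which the neural crest arises, was dissected at stage 14 (n = 3) and at stage 18 (n = 2). Anterior neural fold, the front part of the border, was dissected at stage 18 (n = 3). Neural plate was dissected at stage 12 (n = 2), and animal cap explants, labelled as epidermis, were taken at stage 14 (n = 1). All groups came from embryos grown at 15 °C, and the labels name no strain, genotype or treatment other than dissection. Whether replicate arrays, called biological in the labels, used separate clutches is not given, so the p-values rest on a spread between samples that may be technical.

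Translation begins when the eIF4 factors bind the mRNA cap and unwind the leader, eIF2 brings the initiator tRNA to the small subunit, and eIF3 holds the complex together until the start codon is found. The elongation factors eEF1A and eEF2 then deliver charged tRNAs and move the ribosome along, and the synthetases charge each tRNA with its amino acid. Frog eggs are stocked with ribosomes, factors and masked mRNA, and the embryo takes over their production from its own genome after the midblastula transition.

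Levels are log2 intensities as deposited, so a difference of 1 is a 2-fold difference, and they were compared between arrays of 1 probe set and never between genes. The background, the 95th percentile of the tag controls, was 3.72. The cap-binding protein eif4e itself and the repressors eif4ebp1 and eif4ebp3 are not analysed here. Array medians lay between 4.94 and 5.04, and arrays within a group correlated at 0.983 to 0.993. The marker lists separated the tissues in part: 5 of 5 measured neural crest genes were higher in stage 18 border than in anterior neural fold, 4 of 4 anterior neural genes were lower there, 5 of 6 epidermis genes were lower in stage 14 border than in the cap, and 3 of 4 neural plate genes were higher in stage 12 plate than in the cap. Of the 4 neural border genes, 2 were higher and 1 lower in stage 14 border than in stage 12 plate, with summed intensities of 1509 to 1847 in the border and 1556 to 1844 in the plate, so this sum did not separate border and plate. Members were well expressed, with a median level of 8.8, and 71 of 74 lay above background in the mean of every group. An adjusted p under 0.05, over all 15491 probe sets that are not controls, counted as a call.

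The members' levels separated the stage 12 plate from the later neural tissues. The median over the 74 members was 8.07 and 8.22 on the 2 plate arrays, 8.91, 9.02 and 8.97 on the stage 14 border arrays, 8.91 and 9.05 on the stage 18 border arrays, 8.78, 9 and 8.94 on the anterior neural fold arrays and 8.26 on the cap array. Each border and fold array lay above the plate arrays and the cap. Among the 4 replicated groups the plate had the lowest mean for 54 members (73%), against 36.6% of all probe sets. Over the 5 groups, 36 members (48.6%) had their lowest mean in the plate, against 26.4% of all probe sets. For 24 (32.4%) it lay in the cap, against 23.4% of all probe sets. The highest mean lay in stage 18 border for 21 members (28.4%) and in the fold for 19 (25.7%). The shares of all probe sets there were 13.5% and 17%. The F test over the 5 groups called 54 of the 74 members (73%), as it did 58.9% of all probe sets.

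**Figure D1:**
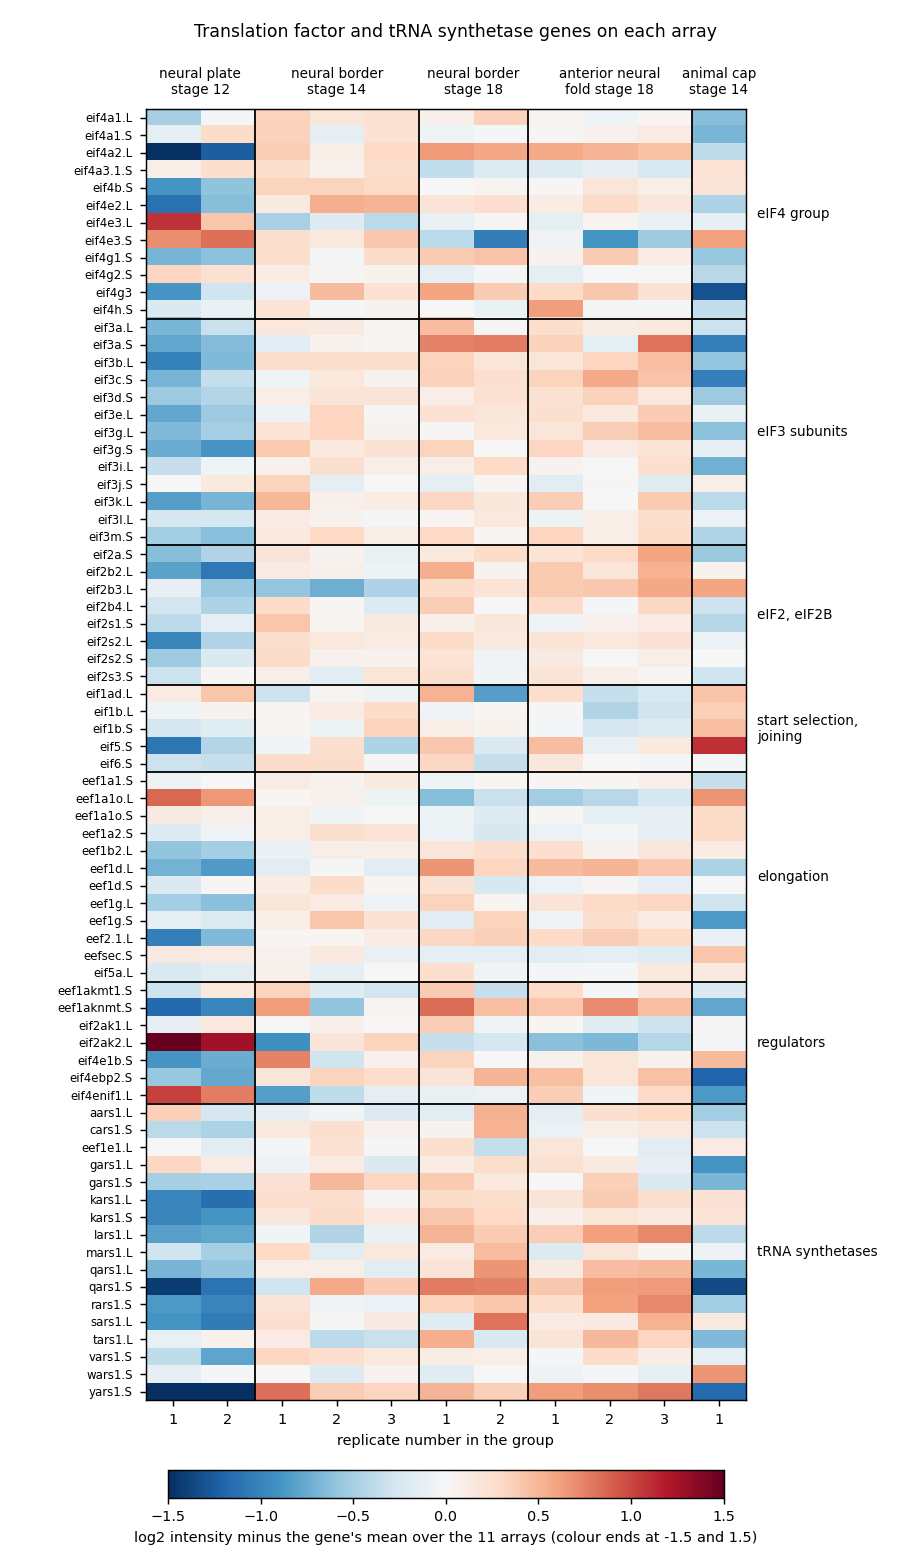
Log2 intensity of the 74 members (rows, by role) on the 11 arrays (columns, by group), as the difference from the gene's own mean over all arrays. Blue cells, below the gene's mean, fill most of the 2 neural plate columns, while eif4e3.L, eif4e3.S, eef1a1o.L, eif2ak2.L and eif4enif1.L are red there.

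The comparison of stage 14 border with stage 12 plate asked what differs between the crest-forming border and the earlier plate. Of the 74 members, 42 were higher (56.8%) and 4 were lower (5.41%) in the border. Of all probe sets, 19.6% were called higher and 21.4% lower. The members' median difference was 0.55, with quartiles of 0.09 and 0.83, against 0.01 over all probe sets. At least 2-fold higher were 11 of the 74 members, as were 8.16% of all probe sets. Bright probe sets, a set chosen after the data were seen, leaned the same way. Of the 1023 probe sets at least as bright as the median member, 41.6% were higher and 11.3% lower, with a median difference of 0.31. Members dimmer than the median member, among them all 7 regulators and most synthetases, lie below this cut. For such members the bright share is no matched background. Of these 1023, 139 were at least 2-fold higher, and the members' 11 of 74 lay near that share. Stage and tissue both differ between these groups and cannot be told apart, and fewer cells of a type and less RNA per cell cannot be told apart in dissected tissue either.

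One plate array carried part of this count. Without neural plate replicate 1, 27 members were higher and 4 lower, all 42 differences kept a positive sign, and of all probe sets 13.7% were higher and 14.9% lower. With any other single array left out, 38 to 43 were higher. The plate also differed in its markers: the 5 measured genes of the early embryo list were lower in the border, with a summed intensity of 900 to 1125 in stage 14 border and 4278 to 6312 in stage 12 plate, and 4 of 6 epidermis genes were higher, with sums of 6145 to 7868 in the border and 3444 to 3476 in the plate. Of the early embryo genes 1 lay below background in the border and 0 in the plate, and of the epidermis genes 1 in the border and 2 in the plate. Cement and hatching gland genes were higher for 3 of 5, with sums of 1064 to 1351 in the border and 175 to 196 in the plate. Of 5 muscle and mesoderm genes 2 were lower in the border, with sums of 50 to 53 there and 93 to 126 in the plate, and 5 lay below background in the border and 3 in the plate. Of 2 notochord genes 1 was lower, with sums of 54 to 66 in the border and 104 to 125 in the plate. The 4 neural plate genes had sums of 2755 to 3211 in the border and 5368 to 6186 in the plate. Sums of the 5 neural crest genes were 1634 to 1718 in the border and 307 to 382 in the plate, where 2 lay below background. The 3′ minus 5′ difference of control probe sets is used as a measure of RNA and labelling quality. For beta actin it was −2.75, −3.08 and −2.95 on the border arrays and −2.55 and −2.46 on the plate arrays. For Gapd it was 2.55, 2.24 and 2.08 on the border arrays and 2.17 and 2.44 on the plate arrays, which overlap. The beta actin difference was negative and the Gapd difference positive on all 11 arrays, so how far the beta actin pair measures quality is not settled. The part of these in the members' result was not tested.

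**Figure D2:**
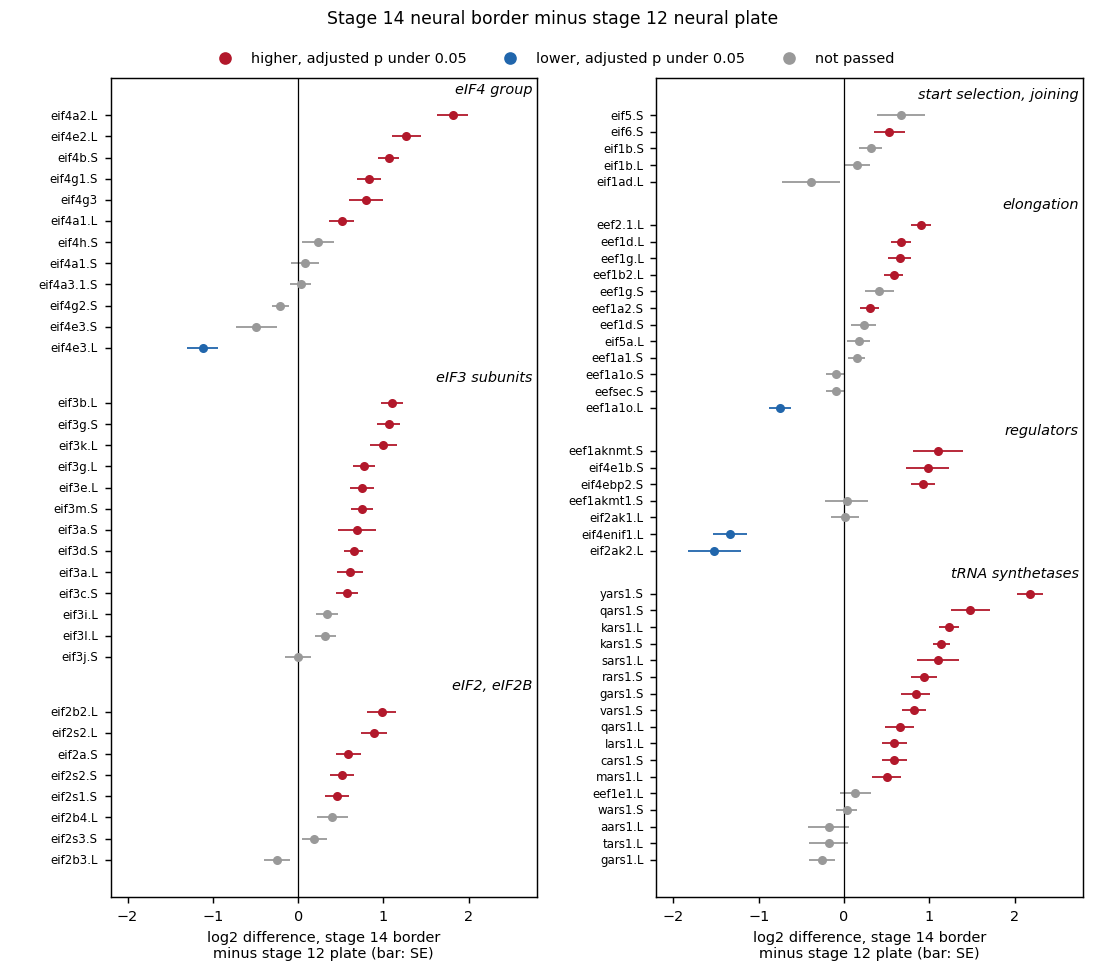
Log2 difference of each member in stage 14 neural border minus stage 12 neural plate, sorted within roles, with the standard error of the limma model as a bar. Red marks the 42 members that were higher and blue the 4 that were lower; grey members did not pass.

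The eIF4 group, which recruits the small subunit to the mRNA cap, held 12 members. Of these, 6 were higher (50%) in stage 14 border than in stage 12 plate and 1 was lower (8.33%). Of all probe sets 19.6% were higher and 21.4% lower, and of the bright ones 41.6% and 11.3%. The group's largest change was in eif4a2.L, an RNA helicase that unwinds the mRNA leader. Its levels were 9.31, 9.03 and 9.23 in stage 14 border and 7.06 and 7.7 in stage 12 plate, a gap of more than 1 log2 unit between the nearest arrays. The difference was 1.81 ± 0.18 (SE), or 3.51-fold, with an adjusted p of 3.19e-05. The paralogous helicase eif4a1.L was higher by 0.51 ± 0.15 (adjusted p = 0.0189), a call lost without neural plate replicate 1 (adjusted p = 0.206) or neural border stage 14 replicate 1 (adjusted p = 0.0515) and with quantile normalization (adjusted p = 0.0608), and eif4a1.S differed by 0.08 ± 0.16 and did not pass.

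The helicase cofactor eif4b.S was at 10.82, 10.82 and 10.79 in stage 14 border and at 9.6 and 9.89 in stage 12 plate, a difference of 1.06 ± 0.12 (adjusted p = 6.35e-05). The border arrays were nearly equal on this probe set and the plate arrays lay apart from them. Its dimmer probe sets differed by 1.19 (adjusted p = 0.000835) and by 0.45 (adjusted p = 0.155, not passed). The cap-binding homologue eif4e2.L, known in mammals for repressing translation of some mRNAs, was higher by 1.27 ± 0.17 (adjusted p = 0.000225). The dimmer probe set of eif4e2.L differed by 0.8 and did not pass (adjusted p = 0.0588). The scaffold proteins eif4g1.S, with a difference of 0.83 ± 0.14, and eif4g3, with 0.80 ± 0.2, were higher too, whereas eif4g2.S, a scaffold that lacks the cap-binding protein's site, differed by −0.21 ± 0.1 and did not pass.

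The cap-binding homologue eif4e3.L was lower by 1.12 on the log2 scale, since its levels were 3.19, 3.48 and 3.27 in stage 14 border and 4.76 and 4.09 in stage 12 plate. The border values lie below the background of 3.72, so the size of this difference depends on that floor. Its copy eif4e3.S differed by −0.49 ± 0.24 (adjusted p = 0.147) and did not pass. The helicase of the exon junction complex, eif4a3.1.S, differed by 0.03 ± 0.12.

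The eIF3 subunits are parts of the large scaffold that joins the small subunit to the mRNA. They were higher for 10 of 13 in stage 14 border than in stage 12 plate and lower for none, with differences between 0 and 1.1. That is 76.9% higher, against 19.6% of all probe sets and 41.6% of the bright ones. The subunit eif3b.L was at 9.61, 9.6 and 9.6 in stage 14 border and at 8.33 and 8.68 in stage 12 plate. That is a difference of 1.1 ± 0.13, or 2.15-fold (adjusted p = 0.000118), and the border arrays agreed within 0.01 SD. Close behind were eif3g.S with 1.06 ± 0.13 and eif3k.L with 1 ± 0.16. The peripheral subunit eif3j.S did not pass, at 0 ± 0.15 (adjusted p = 0.996), and eif3i.L (adjusted p = 0.0647) and eif3l.L (adjusted p = 0.0585) missed the threshold.

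Of the 8 members around eIF2, the carrier of the initiator tRNA, 5 were higher in stage 14 border and none was lower. That is 62.5% higher, against 19.6% of all probe sets and 41.6% of the bright ones. The beta subunit eif2s2.L was at 9.49, 9.41 and 9.36 in stage 14 border and at 8.26 and 8.8 in stage 12 plate, a difference of 0.89 ± 0.15 (adjusted p = 0.000933). The beta subunit of the exchange factor eIF2B, eif2b2.L, was higher by 0.98 ± 0.17 (adjusted p = 0.00104). The gamma subunit of the same exchange factor, eif2b3.L, differed by −0.25 ± 0.15 (adjusted p = 0.213) and did not pass. The alpha subunit eif2s1.S, whose phosphorylation shuts down initiation under stress, was higher by 0.46 ± 0.14 (adjusted p = 0.0245). That call was lost without neural plate replicate 1 (adjusted p = 0.194) or neural border stage 14 replicate 1 (adjusted p = 0.0674) and with only the compared arrays in the model (adjusted p = 0.0599), and those of eif2a.S (adjusted p = 0.0808) and eif2s2.S (adjusted p = 0.152) without neural plate replicate 1. The gamma subunit eif2s3.S did not pass, at 0.19 ± 0.15.

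Start codon selection and subunit joining held 5 members and 1 call. This share of 20% lay near the 19.6% of all probe sets that were higher, so the count is no result about the group. The anti-association factor eif6.S, which also works in building the large subunit, was higher by 0.53 ± 0.18 (adjusted p = 0.0374). The call was lost when either plate array, neural border stage 14 replicate 1 or 2, or anterior neural fold replicate 2 or 3 was left out, with adjusted p between 0.0519 and 0.134, and with quantile normalization (adjusted p = 0.09). The GTPase activator eif5.S had the largest difference of the group, 0.67 ± 0.28, and did not pass (adjusted p = 0.0824).

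Of the 12 elongation members, 5 were higher (41.7%) in stage 14 border and 1 was lower (8.33%). Of all probe sets 19.6% were higher and 21.4% lower. Of the bright probe sets 41.6% were higher and 11.3% lower, so the elongation members lay near the bright share. The translocase eef2.1.L was at 11.42, 11.42 and 11.51 in stage 14 border and at 10.37 and 10.73 in stage 12 plate, a difference of 0.9 ± 0.12 (adjusted p = 0.000218). Subunits of the eEF1B exchange factor, which recharges eEF1A with GTP, were higher by 0.67 ± 0.12 for eef1d.L, 0.65 ± 0.13 for eef1g.L and 0.58 ± 0.11 for eef1b2.L. The eef1d.L call was lost when its probe sets were averaged (adjusted p = 0.0557), the other one lying below background. The muscle and neuron form of eEF1A in mammals, eef1a2.S, was higher by 0.3 ± 0.11 with an adjusted p of 0.0488, at levels of 4.52, 4.67 and 4.63 in stage 14 border and 4.23 and 4.38 in stage 12 plate. These low levels are close together, and the call is at the threshold.

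The carriers of charged tRNA went different ways. The main somatic form eef1a1.S was at 13.35, 13.28 and 13.38 in stage 14 border and at 13.15 and 13.22 in stage 12 plate, near the top of the scale, where array maxima were 13.17 to 13.56. Its difference of 0.15 ± 0.1 did not pass (adjusted p = 0.255). The oocyte form eef1a1o.L was at 9.71, 9.75 and 9.6 in stage 14 border and at 10.54 and 10.33 in stage 12 plate. It was lower by a difference of −0.75 ± 0.13 (adjusted p = 0.00147), while eef1a1o.S differed by −0.1 ± 0.11 and did not pass. The hypusine-carrying factor eif5a.L differed by 0.17 ± 0.13 on its brightest probe set and did not pass.

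Of the 7 regulators, 3 were higher (42.9%) and 2 lower (28.6%). Of all probe sets 19.6% were higher and 21.4% lower, and of the bright ones 41.6% and 11.3%. The RNA-activated kinase eif2ak2.L, known as PKR in mammals, was at 3.47, 4.58 and 4.72 in stage 14 border and at 5.91 and 5.65 in stage 12 plate. It was lower by a log2 difference of −1.52 ± 0.31 (adjusted p = 0.00284), with 1 border array below background. The eIF4E transporter eif4enif1.L, part of the complexes that hold maternal mRNA silent in oocytes, was at 4.72, 5.16 and 5.41 in stage 14 border and at 6.57 and 6.31 in stage 12 plate, a difference of −1.34 ± 0.2 (adjusted p = 0.000459). Both lay lower on each border array than on either plate array.

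The repressor eif4ebp2.S, which binds eIF4E until mTOR phosphorylates it, was at 7.18, 7.33 and 7.27 in stage 14 border and at 6.43 and 6.23 in stage 12 plate, a difference of 0.93 ± 0.14 (adjusted p = 0.000475). The oocyte form of the cap-binding protein, eif4e1b.S, was higher by 0.98 ± 0.25, at 7, 5.96 and 6.33 in stage 14 border and 5.38 and 5.52 in stage 12 plate. Its call (adjusted p = 0.0103), and that of the eEF1A methyltransferase eef1aknmt.S (1.1 ± 0.29, adjusted p = 0.0121), were lost without neural plate replicate 1, at adjusted p of 0.0776 and 0.0897. The heme-regulated kinase eif2ak1.L, at 0.01 ± 0.16, did not pass.

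The tRNA synthetases held the largest change of any member. Of these 17 members, 12 were higher (70.6%) in stage 14 border than in stage 12 plate and none was lower. Of all probe sets 19.6% were higher, and of the bright ones 41.6%. Tyrosyl-tRNA synthetase, yars1.S, was at 7.72, 7.27 and 7.22 in stage 14 border and at 5.26 and 5.2 in stage 12 plate. Every border array lay about 2 log2 units above the plate, and the difference was 2.18 ± 0.15, or 4.52-fold (adjusted p = 5.34e-06). The 2 dimmer probe sets of yars1.S differed by 0.23 (adjusted p = 0.217) and 0.07 (adjusted p = 0.685) and did not pass, so this change rests on 1 of 3 probe sets.

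Lysyl-tRNA synthetase was higher in both copies. kars1.S was at 9.33, 9.44 and 9.31 in stage 14 border and at 8.17 and 8.27 in stage 12 plate, a difference of 1.14 ± 0.1 (adjusted p = 2.07e-05). kars1.L was at 7.51, 7.51 and 7.27 in stage 14 border and at 6.28 and 6.12 in stage 12 plate, a difference of 1.23 ± 0.12 (adjusted p = 3.28e-05). Glutaminyl-tRNA synthetase was higher in both copies too, qars1.S by 1.48 ± 0.23 (adjusted p = 0.000541) and qars1.L by 0.65 ± 0.17 (adjusted p = 0.0108), the qars1.L call being lost without neural plate replicate 1 (adjusted p = 0.0807).

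Seryl-tRNA synthetase sars1.L was higher by 1.1 ± 0.25 and arginyl-tRNA synthetase rars1.S by 0.94 ± 0.15. Methionyl-tRNA synthetase mars1.L was higher by 0.5 ± 0.17 (adjusted p = 0.0438), a call lost when either plate array, neural border stage 14 replicate 1 or 3, or anterior neural fold replicate 3 was left out (adjusted p between 0.0617 and 0.222), with only the compared arrays (adjusted p = 0.0516) and with a trended, robust prior (adjusted p = 0.0519). Tryptophanyl-tRNA synthetase wars1.S, at 7.76, 7.56 and 7.81 in stage 14 border and 7.63 and 7.74 in stage 12 plate, overlapped between the groups and differed by 0.03 ± 0.12. Alanyl-tRNA synthetase aars1.L (−0.18 ± 0.24) and threonyl-tRNA synthetase tars1.L (−0.18 ± 0.23) did not pass, nor did eef1e1.L (0.13 ± 0.18).

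**Figure D3:**
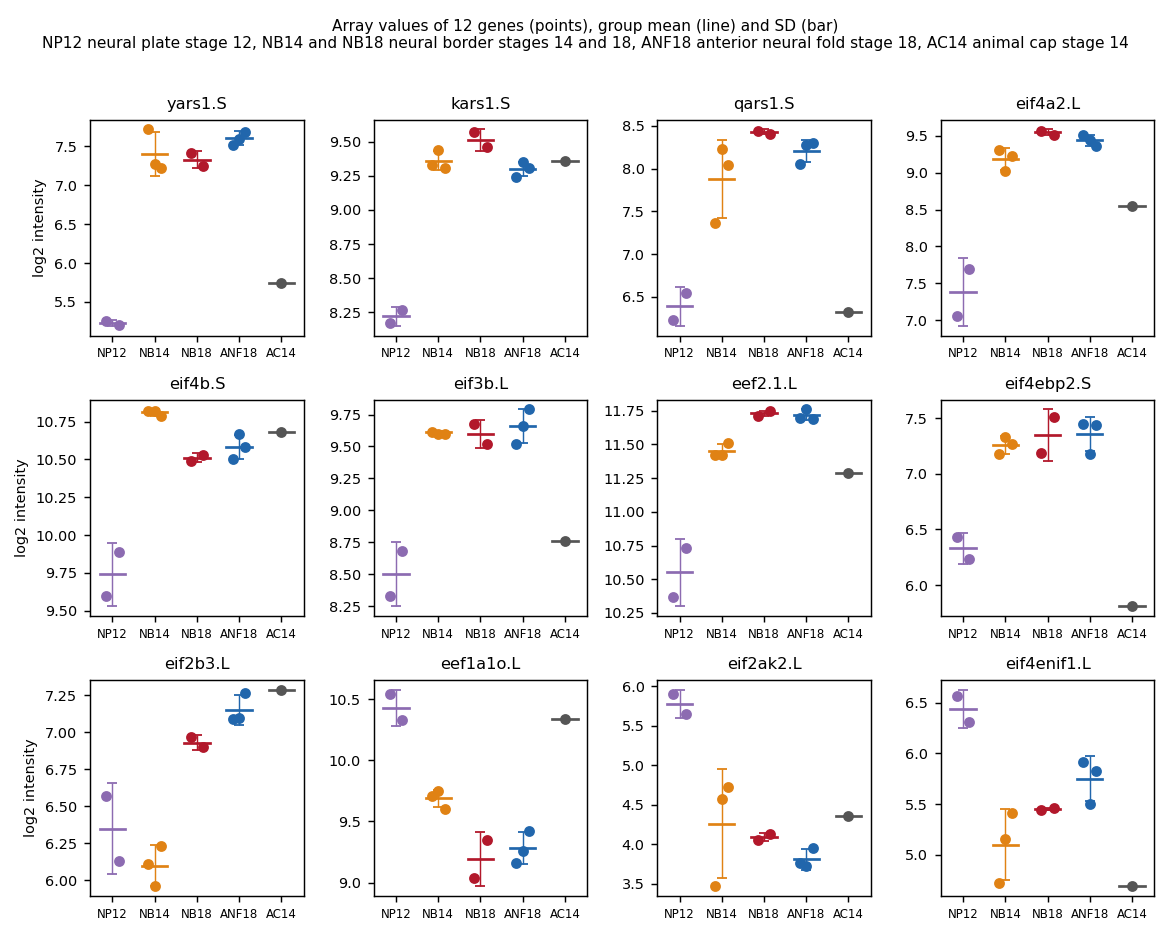
Log2 intensity of 12 members on each array (points), with the group mean (line) and SD (bar; the cap has 1 array and no SD). yars1.S, kars1.S, eif4a2.L and eef2.1.L are lowest in the stage 12 plate, eif2ak2.L and eif4enif1.L highest there, and eif2b3.L has its lowest mean in stage 14 border.

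Probe sets of the same member mostly moved the same way. Of the 22 members with 2 or more probe sets, 17 were called between stage 14 border and stage 12 plate. Their 25 other probe sets had the same sign in 23 cases and were called the same way in 16, and none was called the opposite way. The exception lay among members that were not called: the dimmer probe set of eef1a1.S was at 9.15, 7.79 and 6.68 in stage 14 border and at 9.36 and 9.77 in stage 12 plate, a difference of −1.69 (adjusted p = 0.0274). It stood at 4.31 on the cap array, where the brighter probe set stood at 12.88. With the mean of a symbol's probe sets in place of the brightest, the difference of eef1a1.S was −0.77 (adjusted p = 0.0471). The 3 dimmest of 5 probe sets of eif5a.L differed by 0.42, 0.59 and 1.25, and the last 2 of these passed (adjusted p = 0.00459 and 0.00121).

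For the 12 genes with both copies measured, the difference between the changes of the L and S copies was tested across 1017 such gene pairs of the platform, a test chosen after the data were seen. Between stage 14 border and stage 12 plate, 4 of the 12 pairs differed, where 36.5% of all pairs did, so the share among the members was close to that of the platform. Glycyl-tRNA synthetase differed most: gars1.S was at 7.34, 7.61 and 7.43 in stage 14 border and at 6.62 and 6.63 in stage 12 plate, while gars1.L was at 7.59, 7.79 and 7.45 in the border and at 7.97 and 7.78 in the plate. The S copy was higher by 0.84 ± 0.17 and the L copy differed by −0.26 ± 0.15 without passing, and the changes differed by −1.1 ± 0.19 (L minus S, adjusted p = 0.000918). The probe set used for gars1.S can bind related sequences by its suffix, and a dimmer one without such a suffix differed by 0.46 (adjusted p = 0.118).

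The other pairs whose changes differed were eef1a1o (−0.65 ± 0.18, adjusted p = 0.0158), qars1 (−0.83 ± 0.27, adjusted p = 0.0311) and eef1d (0.44 ± 0.16, adjusted p = 0.046), each L minus S. Each of these 3 was lost with single arrays left out: eef1a1o without neural plate replicate 1 (adjusted p = 0.109) or neural border stage 14 replicate 3 (adjusted p = 0.0516), qars1 without either plate array or neural border stage 14 replicate 2 or 3 (adjusted p between 0.0787 and 0.176), and eef1d without any array except neural plate replicate 1 and the cap (adjusted p between 0.0503 and 0.314). The gars1 difference kept its call in each of these. The copies of kars1, eif3a and eif3g changed by 1.23 and 1.14, 0.61 and 0.69, and 0.77 and 1.06 in L and S, with no called difference between them. The probe sets used for kars1.S and eif3a.S can bind related sequences by their suffix. Those without such a suffix changed by 0.9 for kars1.S and 1.06 for eif3a.S. eef1d.S, the partner of eef1d.L, changed by 0.23 ± 0.15 and did not pass.

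**Figure D4:**
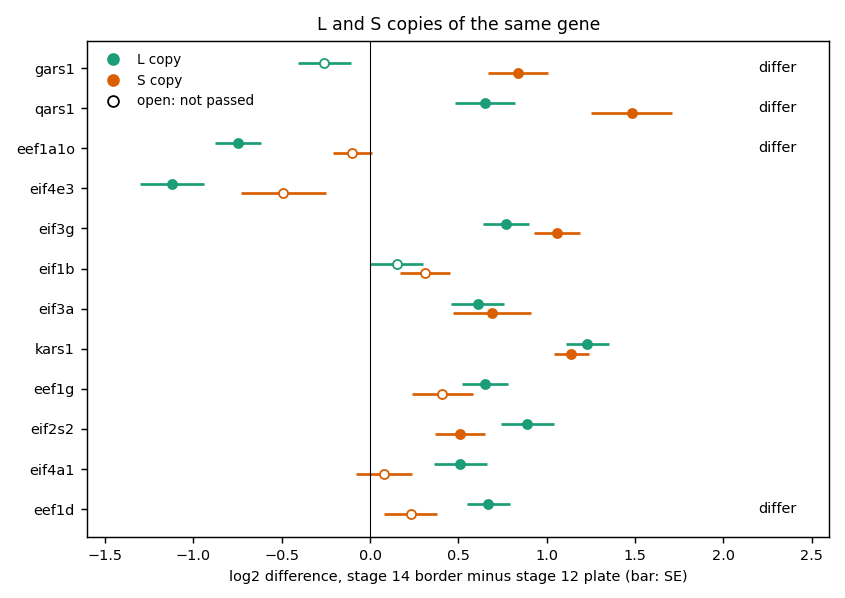
Log2 difference in stage 14 neural border minus stage 12 neural plate for the L copy (green) and the S copy (orange) of the 12 genes with both measured, with standard errors. Filled points passed and open ones did not; the word "differ" marks the 4 pairs whose changes differed.

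Between the border stages few members passed. In stage 18 border 3 members were higher (4.05%) and 2 lower (2.7%) than in stage 14 border, where 3.78% of all probe sets were higher and 2.78% lower, and the median difference was 0.05. The shares are near each other, so this is no result about the members. The exchange factor subunit eif2b3.L was at 6.97 and 6.9 in stage 18 border and at 6.11, 5.96 and 6.23 in stage 14 border, a difference of 0.84 ± 0.15 (adjusted p = 0.0111), and the call was lost without neural border stage 18 replicate 1 (adjusted p = 0.0548).

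The eEF1B subunit eef1d.L was higher by 0.61 ± 0.12 (adjusted p = 0.0208) and leucyl-tRNA synthetase lars1.L by 0.65 ± 0.15 (adjusted p = 0.0358). The exon junction helicase eif4a3.1.S fell by 0.48 (adjusted p = 0.0399) and the cap-binding homologue eif4e3.S by 0.99 (adjusted p = 0.0431), both on the log2 scale. None of these 4 calls was stable. The eef1d.L call was lost without neural border stage 14 replicate 3 (adjusted p = 0.0721) or neural border stage 18 replicate 1 (adjusted p = 0.112) or when its probe sets were averaged (adjusted p = 0.121). The lars1.L call was lost without neural plate replicate 1 or 2, neural border stage 14 replicate 2 or 3, either stage 18 border array or anterior neural fold replicate 2 (adjusted p between 0.0535 and 0.152). The eif4a3.1.S call was lost without neural border stage 14 replicate 1 or 3, either stage 18 border array or any fold array (adjusted p between 0.058 and 0.183). The eif4e3.S call was lost without either plate array, any stage 14 border array, neural border stage 18 replicate 2 or anterior neural fold replicate 3 (adjusted p between 0.0644 and 0.222). With single arrays left out, 1 to 5 members were called in all.

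Stage 18 border against stage 12 plate spans both steps and shares its plate arrays with the first comparison. In stage 18 border 44 members were higher and 7 lower than in the plate, as were 22.1% and 22.4% of all probe sets, and the members' median difference was 0.66. Among the bright probe sets 41.2% were higher and 15.2% lower. By role, 12 of 13 eIF3 subunits, 12 of 17 synthetases, 6 of 8 eIF2 members, 6 of 12 eIF4 members, 4 of 12 elongation members, 3 of 7 regulators and 1 of 5 start selection members were higher. Lower were 4 of 12 eIF4 members (33.3%), 2 of 7 regulators and 1 of 12 elongation members. The elongation and start selection shares of 33.3% and 20% higher lay below that of the bright probe sets. The regulators' 42.9% lay near it, but all 7 regulators are dimmer than these probe sets, so this is no matched background. The markers differed here too. The 5 early embryo genes were lower in stage 18 border, with sums of 377 to 568 there and 4278 to 6312 in the plate. Epidermis genes were higher for 5 of 6, with sums of 13116 to 16029 in the border and 3444 to 3476 in the plate, and gland genes for 4 of 5, with sums of 2807 to 2935 in the border and 175 to 196 in the plate. Their part in the result was not tested.

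Several members stood further from the plate at stage 18 than at stage 14, though the step between the border stages was called for few of them. That step did not pass for eif4a2.L (0.36, adjusted p = 0.292), qars1.S (0.55, adjusted p = 0.204) or eef1a1o.L (−0.49, adjusted p = 0.0598). It was called for eef1d.L and lars1.L, where neither call was stable. eif4a2.L was at 9.57 and 9.52 in stage 18 border and at 7.06 and 7.7 in stage 12 plate, a difference of 2.17 ± 0.19 (adjusted p = 1.74e-05). qars1.S was at 8.44 and 8.41 in stage 18 border and at 6.23 and 6.55 in the plate, a difference of 2.03 ± 0.25 (adjusted p = 0.000119). eef1d.L differed by 1.28 ± 0.14 and lars1.L by 1.24 ± 0.17, where their stage 14 differences were 0.67 and 0.59. In the other direction eef1a1o.L, the oocyte form, was at 9.04 and 9.35 in stage 18 border and at 10.54 and 10.33 in the plate, a difference of −1.24 ± 0.15 (adjusted p = 9.91e-05), where its stage 14 difference was −0.75.

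Stage 18 border and stage 18 anterior neural fold, the crest-forming and the non-crest border of the same embryonic stage, gave no call among the members. The limma test called 0 members higher and 0 lower, where 3.31% of all probe sets were called higher and 2.67% lower. Of the bright probe sets fewer were called, 1.47% higher and 1.86% lower, so few calls would be found among members as bright as these. For members dimmer than the median member these shares are no matched background. An unadjusted p under 0.05 was found for 0 members and for 16.9% of all probe sets. The lowest adjusted p of a member was 0.35, and each alternative setting also called 0 members. Differences ran from −0.3 to 0.42, with a median of 0 and quartiles of −0.07 and 0.07. The 95% interval of every member lay within 1 log2 unit of 0, between −0.81 and 0.96 at the extremes, with a median SE of 0.15.

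yars1.S, for example, was at 7.41 and 7.25 in stage 18 border and at 7.52, 7.6 and 7.69 in the fold, a difference of −0.27 ± 0.15 (adjusted p = 0.443). eef2.1.L was at 11.71 and 11.75 in the border and at 11.7, 11.76 and 11.69 in the fold, and its arrays interleaved. eif3a.S had the largest positive difference, 0.42 ± 0.22, with 1 fold array at 5.55 and another at 6.5. These tissues did differ in their markers, as given above, by log2 differences of 2.34 to 4.01 for the 5 crest genes.

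**Figure D5:**
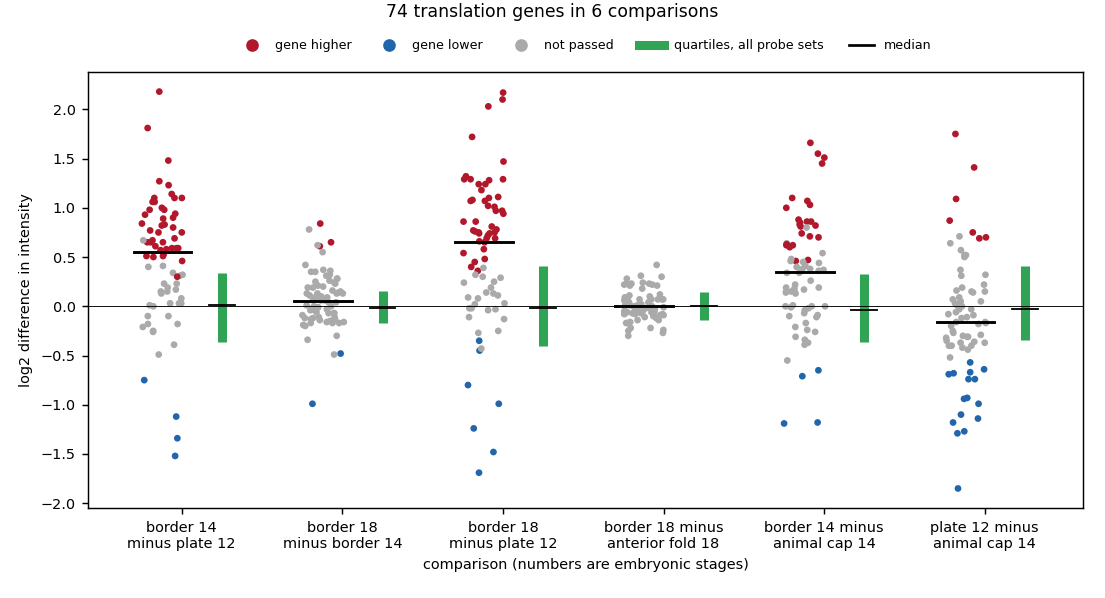
Log2 differences of the 74 members (points) in 6 comparisons, with the members' median (black line) and, to the right of each, the quartiles and median of all 15491 probe sets (green bar). The members' medians are 0.55 and 0.66 for the stage 14 and stage 18 border against the plate, 0.05 between the border stages, 0 against the fold, 0.35 for stage 14 border against the cap and −0.16 for the plate against the cap.

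The animal cap at stage 14 is an epidermal tissue of the same stage as the younger border, on 1 array whose spread is taken from the rest. In stage 14 border 24 members were higher and 4 lower than in the cap, where 15.1% of all probe sets were higher and 15.8% lower, and the members' median difference was 0.35. Of the bright probe sets, 29.8% were higher and 11.4% lower, so the members' 24 of 74 lay near the share of these bright probe sets. Members dimmer than the median member have no match in that set. By role, 8 of 13 eIF3 subunits (61.5%), 6 of 12 eIF4 members (50%) and 5 of 17 synthetases (29.4%) were higher. The synthetase share lay near the 29.8% of the bright probe sets and above the 15.1% of all probe sets. The synthetases' mean level was 7.68 to 7.78 on the border arrays and 7.29 on the cap array. The bright set begins at the median member, at 8.8, so most synthetases are dimmer than it. Neither share is a matched background, and the count is not read as a result about the synthetases. Epidermis genes were lower in the border for 5 of 6, with sums of 6145 to 7868 in the border and 18855 in the cap, and early embryo genes for 4 of 5, with sums of 900 to 1125 in the border and 2155 in the cap. The part of these in the result was not tested.

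The scaffold protein eif4g3 was at 9.39, 9.95 and 9.69 in stage 14 border and at 8.17 in the cap, a difference of 1.51 ± 0.25 (adjusted p = 0.00148). The repressor eif4ebp2.S was at 7.18, 7.33 and 7.27 in the border and at 5.81 in the cap, a difference of 1.45 ± 0.18 (adjusted p = 0.000235). yars1.S was higher by 1.66 ± 0.2 and qars1.S by 1.55 ± 0.29. For the other direction, eif2b3.L was at 6.11, 5.96 and 6.23 in the border and at 7.29 in the cap, a difference of −1.19 ± 0.19 (adjusted p = 0.00103).

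Tryptophanyl-tRNA synthetase wars1.S, which did not differ between border and plate by the test, was at 7.76, 7.56 and 7.81 in stage 14 border and at 8.42 in the cap, a difference of −0.71 ± 0.15 (adjusted p = 0.00549). eif5.S was lower by a log2 difference of −1.18 ± 0.35 (adjusted p = 0.0295), a call lost without neural border stage 14 replicate 3 (adjusted p = 0.0717). kars1.S and kars1.L, which stood apart from the plate, gave no call against the cap on the probe sets used. kars1.S was at 9.33, 9.44 and 9.31 in the border and 9.36 in the cap, and kars1.L differed by −0.04 ± 0.15. The dimmer kars1.S probe set without a suffix was higher in the border, by 0.48 (adjusted p = 0.0292).

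The stage 12 plate against the cap had the opposite balance. In the plate 7 members were higher and 16 lower than in the cap, where 16.7% of all probe sets were higher and 14.6% lower, and the members' median was −0.16, against −0.03 over all probe sets. Of the bright probe sets 19% were higher and 23.9% lower. The members' share of 21.6% lower lay near that of these bright probe sets, and their share higher was 9.46%. The dimmer members again have no match in the bright set. The cap array is shared with the comparison of stage 14 border, and stage and tissue both differ here and cannot be told apart. With only the plate and cap arrays in the model, 3 members were higher and 8 lower. Without neural plate replicate 1, 8 were higher and 12 lower, with 4 of the 7 still called higher. Without neural plate replicate 2, 4 were higher and 14 lower, those 4 again among the 7.

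Markers differed between these tissues as well. Early embryo genes were higher in the plate for 4 of 5, with sums of 4278 to 6312 in the plate and 2155 in the cap. Epidermis genes were lower for 6 of 6, with sums of 3444 to 3476 in the plate and 18855 in the cap. The beta actin 3′ minus 5′ difference was −2.55 and −2.46 on the plate arrays and −3.14 on the cap array. The part of these in the members' result was not tested.

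The initiation factor eif5.S was at 8.51 and 9.15 in the plate and at 10.69 in the cap, a difference of −1.85 ± 0.37 (adjusted p = 0.00425). kars1.L was at 6.28 and 6.12 in the plate and at 7.47 in the cap, a difference of −1.27 ± 0.16 (adjusted p = 0.000283), and kars1.S differed by −1.14 ± 0.14 (adjusted p = 0.000217), or on its probe set without a suffix by −0.41 (adjusted p = 0.0688, not passed). On the probe sets used, both copies of this synthetase lay lower in the plate than in either stage 14 tissue. Among members that were higher, eif4enif1.L was at 6.57 and 6.31 in the plate and at 4.69 in the cap, a difference of 1.75 ± 0.27 (adjusted p = 0.000916), and gars1.L differed by 1.09 ± 0.2 (adjusted p = 0.0022). eif2ak2.L was higher by 1.41 ± 0.41 (adjusted p = 0.0257), a call lost without neural plate replicate 1 (adjusted p = 0.103) or replicate 2 (adjusted p = 0.0502). eif4b.S was lower by −0.93 ± 0.15 on its brightest probe set (adjusted p = 0.00142), but its dimmer ones differed by 0.09 and 0.67 without passing.

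Other genes of the translation machinery were counted from lists by function, also between stage 14 border and stage 12 plate. There 19.6% of all probe sets were higher and 21.4% lower, and of the bright ones 41.6% and 11.3%. For the lists of few genes, counts near these shares are no result about the list. Ribosomal protein genes were higher for 56 of 61 measured and lower for 1, with a median difference of 0.94. rpl8.S was at 11.33 ± 0.09 (SD, n = 3) in stage 14 border and 9.32 ± 0.2 (SD, n = 2) in stage 12 plate, and rpl35a.S at 11.8 ± 0.04 in the border and 9.84 ± 0.31 in the plate. Of 14 genes of ribosome biogenesis 7 were higher and none lower, with myc.S, a transcription factor that drives it, at 9.1 ± 0.08 in the border and 6.52 ± 0.08 in the plate. The RNA polymerase I subunit polr1a.L was higher by 2.07 ± 0.18.

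Of 13 genes from a list for the binding, masking or control of maternal mRNA, 1 was higher, 6 were lower and 6 did not pass, with a median difference of −0.12. The oocyte protein zar1.S was at 6.05 ± 0.25 in stage 14 border and 8.12 ± 0.15 in stage 12 plate, and ybx2.L, which packages stored mRNA, at 6.19 ± 0.09 in the border and 7.55 ± 0.06 in the plate. zar1.S is also 1 of the 5 early embryo markers. Among the 7 genes of poly(A) binding, 2 were higher and 3 lower: pabpc4.L was higher by 2.34 ± 0.27, while the embryonic form pabpc1l.L differed by −1.96 ± 0.14 and paip1.S by −2.13 ± 0.23.

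Of 5 further synthetase and complex genes outside the symbol rule, 2 were higher and 1 lower. The phenylalanyl-tRNA synthetase subunit farsa.S was higher by 1.28 ± 0.12, whereas the other subunit, farsb.L, differed by −0.28 ± 0.13 and did not pass. The fused glutamyl-prolyl-tRNA synthetase eprs1.L was lower, by a log2 difference of −0.64 ± 0.17 (adjusted p = 0.0123). Mitochondrial synthetases gave 2 higher and 1 lower of 5. Both enzymes that make hypusine on eIF5A were lower, dohh.L by −0.52 ± 0.17 and dhps.S by −0.61 ± 0.17. Termination and recycling gave 1 higher of 4, the mTOR pathway 2 higher of 5, and the amino acid response 2 higher and 3 lower of 7.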

How the data were processed

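The deposited table held 15611 probe sets on 11 arrays as log2 intensities, read as log2 from their range of 2.13 to 13.56. The submitters' processing notes name R 2.14.2; for background correction, summary and normalization nothing is stated in the sources used here, and the array medians show a common scale before deposit. Members and gene lists were chosen with earlier results of these data known. Probe sets were named through the platform annotation where it gave 1 symbol (9304), with symbols checked by gene ID against RefSeq (73 of 74 members matched; eif4g3 kept its name). Of the members, 22 had 2 or more probe sets. Of the probe sets used, 14 carry a suffix (_x_at, _s_at or _a_at) for possible binding to several transcripts, of the same gene or of others. All arrays entered 1 limma 3.58.1 model in R 4.3.3 with a mean per group, moderated by eBayes (6 residual and 3.75 prior degrees of freedom), without a replicate block, with two-sided p-values adjusted by Benjamini-Hochberg over 15491 probe sets. The model leaves out 120 control probe sets, and the number of arrays limits the precision. Members named are, per comparison, the 8 largest called changes in each direction, up to 4 per role, and a fixed list of well-known factors with their homeologs; some of these are not printed. Simulated data with known changes were used to test the scripts. Alternatives covered scaling, dim probe sets, probe set choice, homeologs, the arrays in the model, the prior, the replicate block, a 2-fold limit and leaving out each array. No sequences or coordinates are given.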

Additional observations from a re-analysis of the deposited data

How the results depend on the processing

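Counts of members stayed within 1.5 times the reported ones in 129 recomputed values and moved further in 14, and medians moved in 3 and not in 115. With quantile normalization the median difference was 0.43 for stage 14 border minus stage 12 plate and 0.55 for stage 18 border minus the plate. The median of all probe sets moved by under 0.1. That of the bright probe sets fell with the members, from 0.31 to 0.2 and from 0.26 to 0.19 in the same order. With the mean of a symbol's probe sets the plate minus cap median was −0.06. For stage 18 minus stage 14 border, 2 members were called with only the compared arrays in the model, 1 with the replicate block, and 1 to 5 with single arrays left out. For plate minus cap 11 were called with only the compared arrays. Asking for at least 2-fold left 14 members for stage 14 border minus plate, 0 between border stages, 23 for stage 18 border minus plate, 10 for stage 14 border minus cap and 9 for plate minus cap.

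Of the named members and, in alternatives chosen after seeing the data, the copy pairs, 5080 values kept direction and call, 211 lost the call, 30 gained it and 2 reversed: eef1a1.S for stage 14 border minus plate with the mean of probe sets (−0.77) and eif4a1.S for plate minus cap without suffixed probe sets (−0.09). The cause of these changes was not tested. With the replicate block the counts were 42, 1, 45, 0, 22 and 18 for the 6 comparisons in the order of the report and 50 in the F test. Same-numbered arrays' deviations correlated at −0.0726 to 0.257. With so few arrays per group these values cannot decide whether the numbers pair the arrays. Without the cap array its comparisons have no value, and the F test called 44. Without suffixed probe sets 68 members remained.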
